A study of Homo sapiens with 12 samples.

Results

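The YPEL (Yippee-like) genes encode small, closely related zinc-binding proteins that are conserved from yeast to humans. Described here are YPEL1, YPEL2, YPEL3 and YPEL5, 4 of the 19775 genes that the array's annotation names, in HK-2 cells, a human kidney tubule line made immortal, exposed to a compound called Ra. The genes were listed by symbol and chosen by their log2 levels on these arrays, with the differences between Ra and control at 12 h and 48 h known, so their levels with Ra are given as a description. They have 10 probe sets with exactly 1 gene symbol, and each gene is represented by its brightest probe set on average. The 4 groups, with 3 arrays each, were Ra at 12 h, vehicle control at 12 h, Ra at 48 h and vehicle control at 48 h. Per the labels, all groups were grown in 1 medium with EGF, hydrocortisone, insulin, transferrin and selenite and were nearly confluent when treated. The sources used here give neither the nature of Ra nor its dose. HK-2 is 1 cell line, and the arrays measured total RNA from whole wells, so a change of RNA in each cell and a change in the share of cells with that RNA cannot be told apart.

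YPEL proteins were named after the Drosophila protein Yippee, and human family members have been found at the nucleus, the centrosome and the mitotic spindle. YPEL3 is known as a p53-induced gene whose product slows growth and can bring on senescence. YPEL5 is a subunit of the CTLH complex, a ubiquitin ligase related to the GID complex that degrades metabolic enzymes in yeast. YPEL1 was linked to a change of cell shape in mouse fibroblasts. YPEL genes are often named among those that rise when cells leave the cell cycle, which is why the growth state of the cells is described beside them.

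All values are GCRMA log2 expression values, so a difference of 1 is a 2-fold change. Levels under about 5 log2 units lie near the array's background, where size and spread depend on the background model. Ra 48 h replicate 2 stood apart from the other 11 arrays. Its upper quartile over all probe sets was 6.30 (7.01 to 7.21 on the others), and 94.4% of genes were lower on it than the mean of the other Ra arrays of 48 h, with a median difference of -0.65. The SD within a group, taken at the median gene, came to 0.43 with Ra against 0.22 in control cells for 48 h, and to 0.12 in each group of 12 h. Without replicate 2 it was 0.16 with Ra at 48 h. Tests were therefore made with limma on the 6 arrays of each comparison, over the 10050 genes that reached 5 log2 units on at least 3 arrays. The cells had all 6 epithelial markers listed for the check, among them KRT18 and EPCAM. Of 8 proximal tubule markers 7 had a probe set with 1 symbol, and only PAX8 was past that filter. Of 4 immune markers, 3 of them with such a probe set, and 4 endothelial markers 0 were past it. Of 4 fibroblast markers COL1A1 and DCN were. With Ra at 12 h 0 of these 2 passed the test, where 13.6% of all genes did. At 12 h EPCAM rose with Ra (0.34 ± 0.07, limma adjusted p = 0.0254) and PAX8 fell (-0.46 ± 0.09, adjusted p = 0.0225). At 48 h this test called 0% of all genes, so nothing about the markers is read from it. With the spread from all 12 arrays, where 12.6% of genes were called, CDH1 was lower with Ra at 48 h (-1.48, limma adjusted p = 0.0419). That call was lost without Ra 48 h replicate 2. The part of the markers in the YPEL values was not tested.

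The promoters of the members in RefSeq (build GRCh38.p14) are shown because YPEL2 and YPEL5 moved together in vehicle cells while YPEL3 stayed at background. Each is the stretch from 250 bases before the annotated start to 50 after it. That of YPEL2 is chr17:59331405-59331704 on the plus strand, that of YPEL3 chr16:30096164-30096463 on the minus strand and that of YPEL5 chr2:30146757-30147056 on the plus strand. The table used held 3 of the 4 members' promoters, and that of YPEL1 is not shown. Capitals mark matches, on either strand, to GTAAACA (bound by FOXO factors), CACGTG (the E-box), TGACG (the half-site of the cyclic AMP response element) or CCAAT.
YPEL2: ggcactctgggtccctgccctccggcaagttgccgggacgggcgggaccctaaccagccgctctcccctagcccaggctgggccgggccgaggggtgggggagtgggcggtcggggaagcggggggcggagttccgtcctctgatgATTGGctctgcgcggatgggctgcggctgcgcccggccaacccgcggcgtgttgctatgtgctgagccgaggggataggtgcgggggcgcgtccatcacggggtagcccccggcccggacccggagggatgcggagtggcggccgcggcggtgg
YPEL3: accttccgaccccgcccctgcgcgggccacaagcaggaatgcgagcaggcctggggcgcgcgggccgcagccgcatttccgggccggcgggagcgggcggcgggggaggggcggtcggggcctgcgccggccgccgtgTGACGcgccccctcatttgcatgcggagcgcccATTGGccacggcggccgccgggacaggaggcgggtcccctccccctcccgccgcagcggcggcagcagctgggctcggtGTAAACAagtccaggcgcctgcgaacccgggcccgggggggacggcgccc
YPEL5: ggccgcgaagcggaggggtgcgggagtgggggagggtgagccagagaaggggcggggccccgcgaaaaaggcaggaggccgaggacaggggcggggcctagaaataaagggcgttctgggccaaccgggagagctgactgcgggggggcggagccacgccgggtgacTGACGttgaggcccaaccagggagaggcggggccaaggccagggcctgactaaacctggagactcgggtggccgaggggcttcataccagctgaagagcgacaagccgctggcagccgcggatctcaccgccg

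The 3 promoters were rich in G and C, at 75% for YPEL2, 79% for YPEL3 and 70.0% for YPEL5. The YPEL2 window held CCAAT, on the reverse strand, as 34.6% of all 35116 promoters of the same length did on either strand. The YPEL5 window held TGACG, as 24.6% did. The YPEL3 window held both of these and GTAAACA, which 3.42% of promoters had. CACGTG, found in 7.26% of promoters, matched in 0 of the 3. A match of letters is a description and shows no binding.

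Over all 12 arrays the family spanned a wide range of levels. YPEL5 lay between 10.13 and 11.61 log2 units, YPEL2 between 6.31 and 8.74, YPEL1 between 3.69 and 5.87 and YPEL3 between 2.53 and 4.41. These are brightnesses of different probe sets, so they do not rank the genes by abundance. YPEL2 and YPEL5 reached 5 log2 units on all 12 arrays. YPEL1 did so on 5 arrays, all of them with Ra, so it passed the filter only through the groups in which it is high. YPEL3 did so on 0 arrays and was left out of the fits. YPEL4, the fifth human paralog and not a member here, stayed between 2.49 and 2.91.

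**Figure D1:**
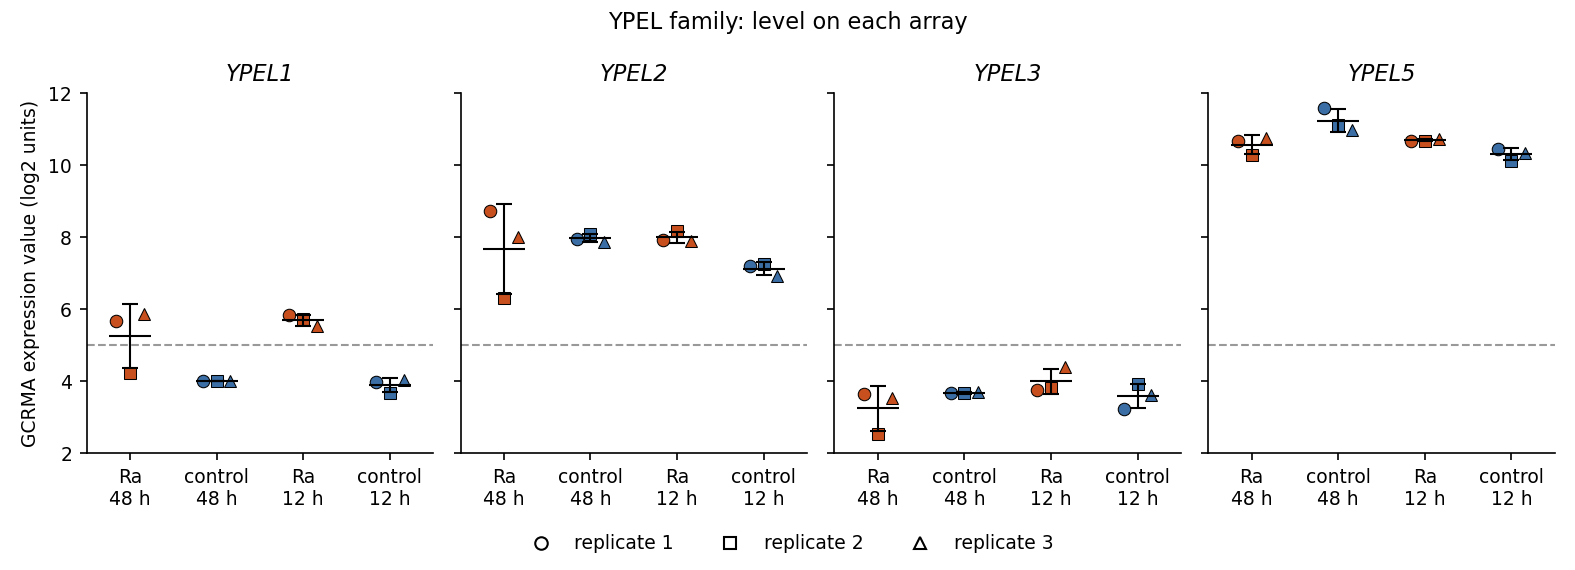
GCRMA log2 expression value (y axis) of the probe set used for each YPEL gene, by group (x axis), with a point for each array, a line at the group mean and bars of ±1 SD (n = 3). The dashed line marks 5 log2 units. YPEL1 is above its control in both Ra groups, YPEL5 is highest in control cells at 48 h, and the square of the Ra 48 h group, replicate 2, is the lowest of its group in every panel.

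YPEL1 was the member that differed most with Ra at 12 h. It stood at 5.84, 5.74 and 5.53 log2 units with Ra, against 3.99, 3.69 and 4.05 in control cells. The groups did not overlap, and every control array lay under 5. The difference was 1.79 ± 0.14 log2 units (SE from the spread within the groups, n = 3 per group), or 3.46-fold on the scale of these values, with the control level near background. The median difference of all 10050 genes was 0.01, and the size for YPEL1 depends on the background model. Left out in turn, the 6 arrays of 12 h gave 1.68 to 1.88.

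At 48 h YPEL1 stood at 5.69, 4.24 and 5.87 with Ra, against 4.01 on control replicates 1 and 3 and just under it on control replicate 2. All 3 Ra arrays were above all 3 control arrays, and replicate 2 was above them by the least. The mean difference was 1.26 ± 0.51 log2 units, and 1.77 ± 0.09 without Ra 48 h replicate 2, where 2 Ra arrays remain. Without that array the effects at 48 h and 12 h differed by -0.02 ± 0.17, and with it by -0.53 ± 0.53. In control cells YPEL1 was at background at both times, with 4.01 ± 0.01 after 48 h and 3.91 ± 0.19 after 12 h (SD, n = 3). At such levels the spread between arrays depends on GCRMA's background model and is no measure of precision.

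The other YPEL1 probe sets were under 5 on all 12 arrays. The second of them stood at 3.13, 3.95 and 4.31 with Ra and at 3.04, 2.95 and 3.02 in control cells at 12 h, a difference of 0.80 ± 0.35. At 48 h it differed by 0.18 ± 0.13 and its groups overlapped. The third lay between 2.58 and 2.82 throughout and gave 0.07 ± 0.03 at 12 h. Only 1 of the 3 YPEL1 probe sets therefore rose above background with Ra.

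YPEL2 was also higher with Ra at 12 h, and in a part of the scale well above background. It stood at 7.92, 8.19 and 7.91 log2 units with Ra, against 7.20, 7.26 and 6.93 in control cells, with no overlap. The difference was 0.88 ± 0.13 (SE), or 1.83-fold, which ranked 154th from the top. Leaving out single arrays gave 0.78 to 0.94. Its other probe sets, under 5 on every array, differed by 0.19 ± 0.18 and 0.07 ± 0.06, with overlapping groups.

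At 48 h the YPEL2 values with Ra were 8.74, 6.31 and 7.999, against 7.97, 8.10 and 7.88 in control cells. The Ra arrays lay on both sides of the control arrays, replicate 1 above and replicate 2 far below. The mean difference was -0.30 ± 0.72 log2 units, and 0.38 ± 0.37 without Ra 48 h replicate 2, so 1 array set its sign. YPEL2 on replicate 2 differed from the mean of the other Ra arrays by -2.06 log2 units, where the lower quartile of all genes was -0.97. No direction is therefore given for YPEL2 at 48 h.

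YPEL5 differed least at 12 h, with the smallest spread. It stood at 10.68, 10.68 and 10.74 log2 units with Ra, against 10.46, 10.13 and 10.35 in control cells. Every Ra array was above every control array, and the difference was 0.39 ± 0.10 (SE; 1.31-fold). It ranked 1122nd from the top, and single arrays left out gave 0.29 to 0.46. The other YPEL5 probe set gave 0.43 ± 0.05, with 9.74, 9.67 and 9.71 with Ra against 9.34, 9.18 and 9.31 in control cells.

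At 48 h YPEL5 was lower with Ra, at 10.68, 10.29 and 10.76, against 11.61, 11.13 and 10.99 in control cells. The groups did not overlap, in the opposite direction to 12 h. The difference was -0.67 ± 0.24 log2 units, beside a median of -0.20 for all 10050 genes. It ranked 1915th from the lowest. With arrays centred on their median the YPEL5 difference was -0.42, and after quantile normalization -0.47, so part of its size goes with the scaling of the arrays. Without Ra 48 h replicate 2 it was -0.52 ± 0.19 and ranked 1290th from the lowest, beside a median of 0.01. The other probe set gave -0.93 ± 0.35, and -0.68 ± 0.26 without that array, with no overlap in either case. Its level with Ra was 10.58 ± 0.25 after 48 h and 10.70 ± 0.03 after 12 h (SD, n = 3), a difference of -0.12 ± 0.15 (SE), while the control level was higher at the later time. RefSeq lists 4 pseudogenes of YPEL5, and both YPEL5 probe sets are of a type that can match several transcripts. Whether such copies add to the signal was not tested.

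YPEL3 stayed under 5 log2 units throughout. It stood at 3.77, 3.82 and 4.41 with Ra, against 3.24, 3.92 and 3.61 in control cells at 12 h, and the groups overlapped. At 48 h it stood at 3.66, 2.53 and 3.54 with Ra, against 3.66, 3.67 and 3.71 in control cells, where the groups just failed to overlap. Its differences of 0.41 ± 0.28 at 12 h and -0.44 ± 0.36 at 48 h (-0.08 ± 0.06 without Ra 48 h replicate 2) lie at background and are no measure of a change. Its other probe set stayed between 2.41 and 2.53.

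**Figure D2:**
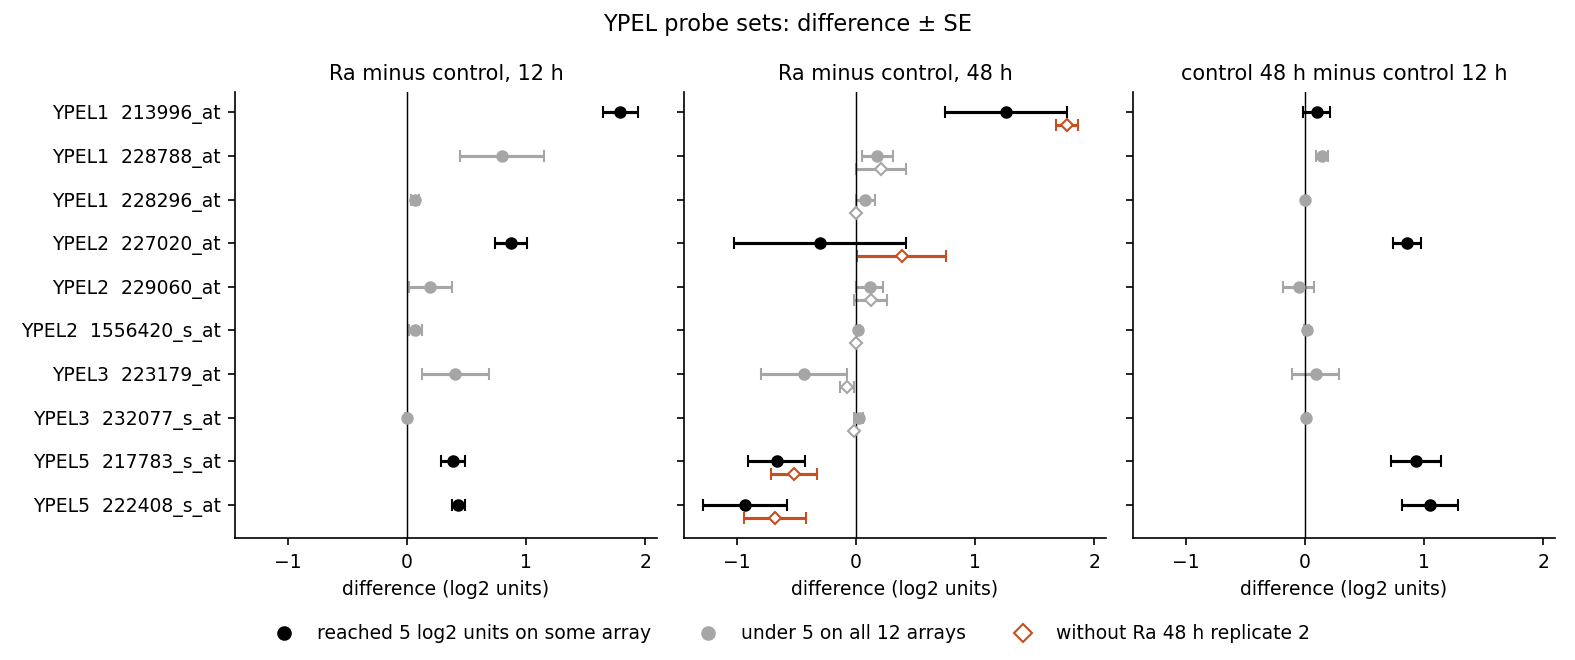
Difference in log2 units (x axis) for each of the 10 probe sets of the YPEL genes (y axis), with bars of ±1 SE from the spread within the groups (n = 3 per group). Open diamonds leave out Ra 48 h replicate 2, and grey marks probe sets under 5 log2 units on all 12 arrays. YPEL5 is right of 0 at 12 h and left of it at 48 h by both of its probe sets, and the YPEL2 difference at 48 h is -0.30 with that array and 0.38 without it.

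For YPEL2 and YPEL5 the groups at 12 h did not overlap and Ra was higher, as for 18.4% of all 10050 genes. YPEL1 passed the filter only through its Ra arrays, so it is not set beside that share. Limma's adjusted p was under 0.05 for 13.6% of genes at 12 h (7.34% higher and 6.25% lower with Ra). The members' differences with Ra were known when they were chosen, so no test is given for them and nothing is read from these overlaps. With the replicate number as a block, since same-numbered samples of 12 h deviated together, limma called 2351 genes in place of 1366, and with the spread from all 12 arrays 3 genes (0.0299%). At 48 h limma called 0 of the 10050 genes (0%; 17.4% at an unadjusted p under 0.05), and 1262 (12.6%) when the spread was taken from all 12 arrays. Groups at 48 h did not overlap, with Ra higher, for 5.37% of genes, and with Ra lower for 18.6%, YPEL5 among them. YPEL1 is not set beside the 5.37%, for the reason given above. Without Ra 48 h replicate 2 these shares were 23.2% and 19.2%, limma called 0% on the 5 arrays left, and 19.3% with the spread from all 11. For the difference between the effects of the times limma called 2 genes (0.0199%).

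The change in vehicle cells between the times involves no Ra array. It was tested for the members, although it shares the control arrays with the comparisons above. Those comparisons were known when the members were chosen. Each adjusted p given here for a member thus uses arrays of that choice and is no independent test. YPEL2 rose in control cells, with 7.97, 8.10 and 7.88 log2 units at 48 h, against 7.20, 7.26 and 6.93 at 12 h. The difference was 0.85 ± 0.14 (limma SE; 1.81-fold) with an adjusted p = 0.00706, and it was higher in 3 of 3 arrays, with no overlap, as for 24.8% of genes. YPEL5 rose by a similar amount, 0.93 ± 0.18 (1.91-fold, limma adjusted p = 0.0107), with 11.61, 11.13 and 10.99 at 48 h, against 10.46, 10.13 and 10.35 at 12 h. YPEL1 was under 5 log2 units on all 6 control arrays, so no test is given for it. In this comparison 33.2% of all genes were called, 16.6% higher and 16.6% lower at 48 h. YPEL2 ranked 869th and YPEL5 739th from the top. With the spread taken from all 12 arrays, where 19.5% of genes were called, the YPEL2 call was lost (limma adjusted p = 0.197) and that of YPEL5 held (0.00671). The second YPEL5 probe set gave 1.05 ± 0.23 by its own spread, and the dim YPEL2 probe sets gave -0.05 and 0.01 log2 units.

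In order of level, YPEL5 was highest in control cells at 48 h (11.25 ± 0.32), then with Ra at 12 h (10.70 ± 0.03), with Ra at 48 h (10.58 ± 0.25) and last in 12 h control cells (10.31 ± 0.17; SD, n = 3). Only the first step separates groups without overlap. For YPEL2 the order was Ra at 12 h (8.01 ± 0.16), control at 48 h (7.98 ± 0.11), Ra at 48 h (7.68 ± 1.24) and control at 12 h (7.13 ± 0.17), and each neighbouring pair overlapped. For YPEL1 both Ra groups stood above both control groups, with no overlap at that step only.

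The growth state of the cells was described with 16 proliferation genes (MKI67, cyclins, MCM subunits and others). This list and those below were chosen with earlier results of these data known, so their counts and adjusted p are a description. In vehicle cells all 16 fell between the times in limma's test, with a median of -1.28 log2 units, where 33.2% of all genes were called. CCNE2, a cyclin of S phase entry, differed by -2.67 ± 0.20 (SE, limma adjusted p = 0.0015) and AURKA, a mitotic kinase, by -1.41 ± 0.30 (adjusted p = 0.0145). The count was 4 without control 12 h replicate 1, 2 or 3 or control 48 h replicate 2, with the median still below 0. YPEL2 and YPEL5 were thus higher in the vehicle cells of 48 h, which had lower proliferation genes. Relative to the control mean of 12 h, the mean of the 16 genes was -1.92, -1.44 and -0.79 log2 units on control 48 h replicates 1, 2 and 3. YPEL5 was at 1.30, 0.82 and 0.68 on the same arrays, and YPEL2 at 0.84, 0.97 and 0.75. The order of these 3 arrays by YPEL5 was the reverse of that by the list, and the order by YPEL2 was not. With Ra at 48 h the list was at -0.46, -0.72 and -0.08 and YPEL5 at 0.37, -0.02 and 0.45, which is the same order. In the groups of 12 h the order by YPEL5 was neither the same nor the reverse. An order of 3 arrays is a description, and no link between arrays was tested.

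With Ra at 12 h the same list showed no shift to one side. Of the 16 genes 8 had higher and 8 lower means, with a median of -0.01, and limma called PCNA, the DNA clamp of replication, as higher (0.21 ± 0.04, adjusted p = 0.0205) and AURKA as lower (-0.52 ± 0.06, adjusted p = 0.00685). With the replicate block 2 rose and 2 fell. No gene of the list rose without any 1 of the 12 h arrays other than Ra replicate 3, without the filter, without the intensity trend or with the spread from all 12 arrays. The means of the list over the arrays were -0.07, 0.05 and -0.06 log2 units with Ra, against -0.01, 0.00 and 0.01 in control cells. YPEL1, YPEL2 and YPEL5 were therefore higher with Ra at 12 h beside a list of proliferation genes that went both ways. Of 20 measured growth arrest genes 7 rose, where 7.34% of all genes did. That count was 3 of 26 without the filter and 0 with the spread from all 12 arrays, and a link with the YPEL genes was not tested. Cell number and cell cycle phase are not among the data used here.

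At 48 h all 16 proliferation genes had higher means with Ra than in control cells, with a median of 0.95 log2 units, beside -0.20 for all genes. Limma called 0 of them with the spread of the 6 arrays, as for all genes (0%). At an unadjusted p under 0.05 there were 11, where 17.4% of all genes passed. With the spread from all 12 arrays 10 were called as higher, where 3% of all genes were called as higher. CCNE2 differed by 1.96 ± 0.38, RRM2, which makes deoxynucleotides, by 1.47 ± 0.37 and the helicase subunit MCM5 by 1.23 ± 0.33 (limma SE), each with an adjusted p of 0.191 to 0.193 in the test on 6 arrays. Without Ra 48 h replicate 2 the median was 1.07, again with 16 higher means and 0 calls. YPEL5 was thus lower with Ra at 48 h beside higher means of the proliferation genes, and YPEL1 was higher.

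**Figure D3:**
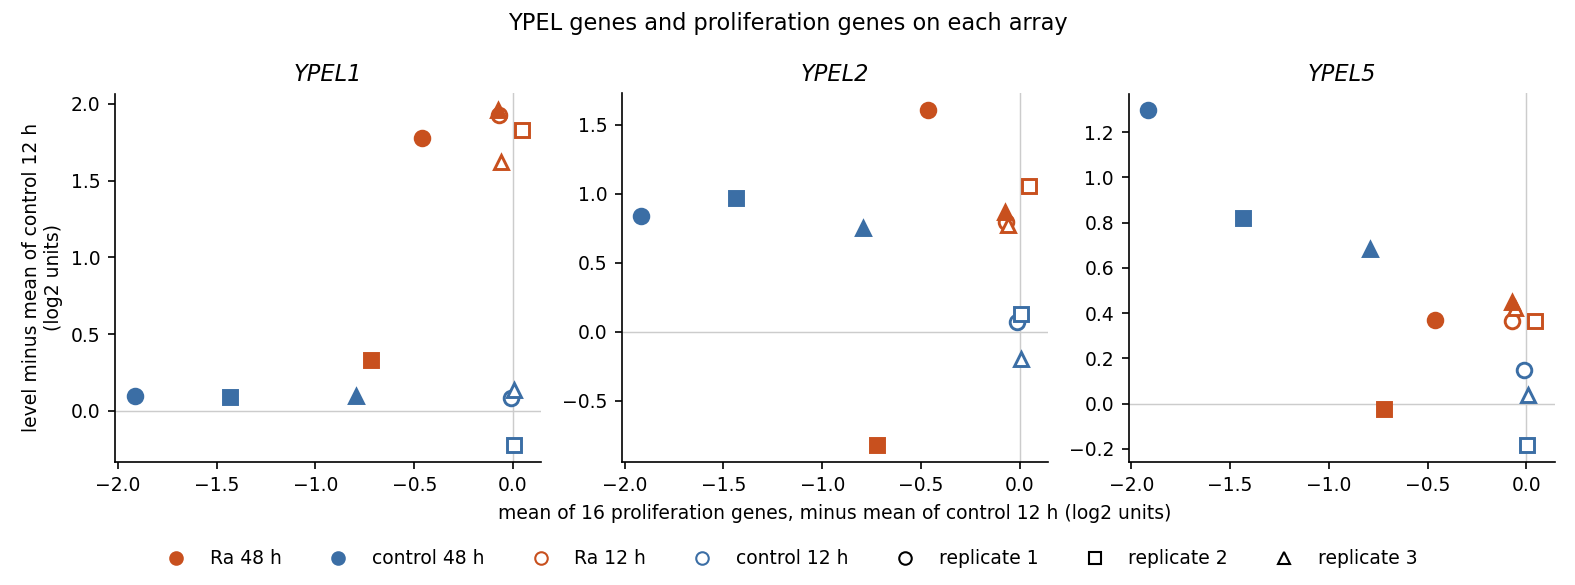
Level of YPEL1, YPEL2 and YPEL5 on each of the 12 arrays (y axis, log2 units relative to the mean of control cells at 12 h) against the mean of 16 proliferation genes on the same array (x axis, same scale). Filled points are 48 h and open points 12 h, and the marker's shape gives the replicate number. For YPEL5 the control arrays of 48 h lie at the upper left (1.30, 0.82 and 0.68), and for YPEL1 the control arrays stay near 0 wherever they lie on the x axis.

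The CTLH complex, to which YPEL5 belongs, was described through 10 other subunits, all of them past the filter. They too were listed with earlier results known. With Ra at 12 h RANBP9, a scaffold subunit, rose by 0.35 ± 0.08 log2 units (SE, limma adjusted p = 0.0254), with no overlap. It stood at 11.17, 11.12 and 11.01 with Ra, against 10.83, 10.73 and 10.68 in control cells. GID4, the substrate receptor, had 0.50 ± 0.14 (limma adjusted p = 0.0577) and MAEA, a RING subunit, -0.26 ± 0.07 (adjusted p = 0.0559). With the replicate block 2 subunits rose and 1 fell. The other 7 did not pass, with differences between -0.20 for WDR26 and 0.27 for RANBP10 and, in between, RMND5A, GID8, ARMC8, RMND5B and MKLN1. The median of the 10 was 0.12, beside 0.01 for all genes. The RANBP9 call was lost without any 1 of the 12 h arrays other than Ra replicate 3. It was also lost without the filter and with the spread from all 12 arrays.

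RANBP9 had the same order of group means as YPEL5. So did genes outside the complex, among them BTG1, MXI1 and TNFRSF10B, and the share of all genes with that order was not counted. MAEA was highest in control cells at 12 h (11.08) and lowest in those at 48 h (10.49). RANBP9 stood at 11.17, 10.73 and 10.90 with Ra at 48 h, against 11.53, 11.73 and 11.52 in control cells, with no overlap. That difference of -0.66 ± 0.21 did not pass (limma adjusted p = 0.219; 0.0179 with the spread from all 12 arrays), and it was -0.56 without Ra 48 h replicate 2. In vehicle cells RANBP9 rose by 0.84 ± 0.10 between the times (limma adjusted p = 0.00334). There MKLN1 (0.59 ± 0.15, adjusted p = 0.0275) and RMND5B (0.76 ± 0.22, 0.0387) rose too, and MAEA fell (-0.59 ± 0.11, 0.0102). Over all genes 16.6% rose and 16.6% fell. Without single control arrays 1 to 4 subunits rose and 1 fell, and with the spread from all 12 arrays 1 rose and 1 fell. At 48 h with Ra 0 of the 10 passed, as for all genes (0%). At an unadjusted p under 0.05 there was 1, where 17.4% of all genes passed. The median of the 10 was -0.32 beside -0.20 for all genes, and 0.18 without Ra 48 h replicate 2.

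Of 28 genes listed for growth arrest, 26 had a probe set with 1 symbol and 20 were past the filter. As the list was chosen with earlier results of these data known, its counts are no independent test. With Ra at 12 h 7 of them rose and 0 fell, where 7.34% of all genes rose, and the median was 0.32 log2 units beside 0.01 for all genes. CCNG2, an atypical cyclin that restrains the cycle, differed by 0.88 ± 0.07 (SE, limma adjusted p = 0.00395). It stood at 11.77, 11.83 and 11.71 with Ra, against 10.94, 10.84 and 10.89 in control cells. The repressor HBP1 rose by 0.85 ± 0.12 (adjusted p = 0.00844) and the antiproliferative gene BTG1 by 0.53 ± 0.06 (adjusted p = 0.00643). The other calls were CDKN1B, RBL2, MXI1 and TXNIP, named here after their values were seen. Without single arrays of 12 h 3 to 7 genes rose (3 without Ra replicate 2 or control replicate 2, 4 without Ra replicate 1 or control replicates 1 or 3), with the replicate block 8, without the filter 3 of 26, and with the spread from all 12 arrays 0.

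In vehicle cells 11 of the 20 growth arrest genes rose and 3 fell between the times, where 16.6% of all genes rose and 16.6% fell. CCNG2 rose by 0.82 ± 0.10 (limma adjusted p = 0.00373), HBP1 by 0.88 ± 0.21 (0.0204) and BTG1 by 1.37 ± 0.08 (0.00105). Without single control arrays 5 to 11 rose. TXNIP, an inhibitor of thioredoxin named after its value was seen, was lower, at 3.41, 3.17 and 3.89 in control cells of 48 h, against 8.36, 8.76 and 9.31 in those of 12 h. Its later level is at background, so the size of that difference is not given. With Ra at 48 h 0 of the 20 passed in the test on 6 arrays, as for all genes (0%). At an unadjusted p under 0.05 there were 3, where 17.4% of all genes passed. BTG1 had -0.85 ± 0.25, the kinase inhibitor gene CDKN1A -0.91 ± 0.34 and CDKN2B -1.52 ± 0.58, with adjusted p of 0.215, 0.249 and 0.254. With the spread from all 12 arrays, where 12.6% of genes were called, only BTG1 was called, as lower (limma adjusted p = 0.0206). The list's median was -0.27, and -0.03 without Ra 48 h replicate 2.

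Because YPEL3 is known as a p53 target, 20 target genes of p53 were listed. Of these 17 had a probe set with 1 symbol, and all 17 were past the filter. Earlier results of these data were known when this list was chosen, so its counts are a description. With Ra at 12 h 3 rose and 1 fell, where 7.34% of all genes rose and 6.25% fell. These were the secreted factor GDF15 (0.99 ± 0.21, limma adjusted p = 0.0244), the death receptor gene TNFRSF10B (0.34 ± 0.08, 0.0322) and the repair gene DDB2 (0.60 ± 0.16, 0.0464; named after its value was seen), with SESN2 lower (-0.51 ± 0.11, 0.0259). The median of the 17 was 0.04 log2 units, close to the 0.01 of all genes, and CDKN1A had 0.03 ± 0.25. Without single arrays of 12 h 0 or 1 rose and 0 or 1 fell, with the replicate block 4 rose and 1 fell, and without the filter or with the spread from all 12 arrays 0 were called. At 48 h 0 passed in the test on 6 arrays, as for all genes (0%). At an unadjusted p under 0.05 there were 4, where 17.4% of all genes passed. SESN2 was at -2.67 ± 0.69, FAS at 0.96 ± 0.32 and CDKN1A at -0.91 ± 0.34, the last as given above. With the spread from all 12 arrays, where 12.6% of genes were called, FAS was called higher and SESN2 lower (limma adjusted p = 0.0255 and 0.0171).

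**Figure D4:**
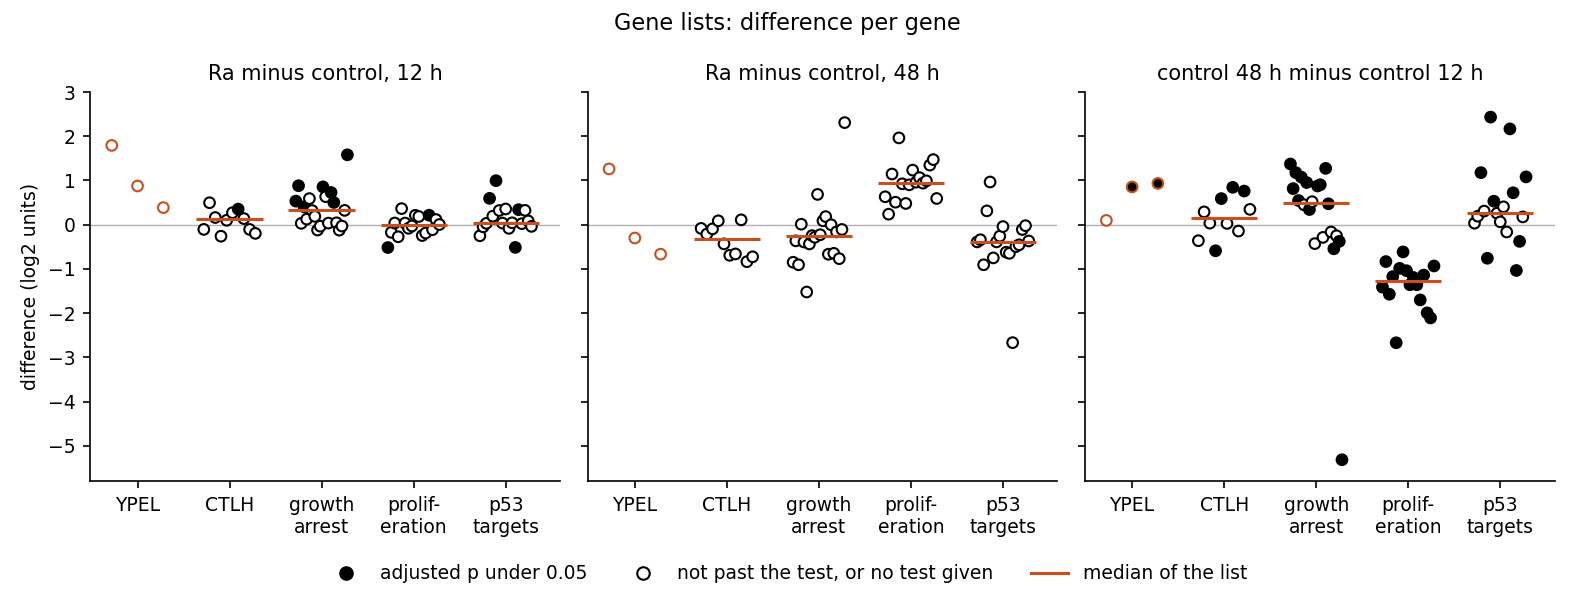
Difference of each gene in log2 units (y axis) for the 3 YPEL genes past the filter and the measured genes of 4 lists (x axis), in 3 comparisons of 3 arrays against 3. Filled points had a limma adjusted p under 0.05 in the fit of 6 arrays, and lines are list medians. No test is given for the YPEL genes with Ra or for YPEL1 between the control groups, and their points there are open. The proliferation list lies near 0 with Ra at 12 h (median -0.01) and wholly below 0 in control cells at 48 h against 12 h (median -1.28).

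The genes most like each member were found by Pearson correlation over the 12 arrays, among genes past the filter. The arrays share their groups, and Ra 48 h replicate 2 is low for most genes, so these values are a description. YPEL1 was most like PSIP1, a chromatin-binding coactivator (r = 0.96), the kinase gene PIM1 (0.95) and the transcription factor gene FOXK1 (0.95), and without that array the values were 0.97, 0.95 and 0.95 over 11 arrays. PSIP1 at 12 h averaged 11.03 with Ra against 10.42 in control cells, and at 48 h 10.98 with Ra against 10.37 in control cells. YPEL2 was most like RETREG2 (r = 0.97), NBPF3 (0.96) and TULP4 (0.95), with 0.94, 0.93 and 0.95 without that array. They then ranked 12th, 20th and 7th, so other genes were more like YPEL2 over the 11 arrays. YPEL5 was most like BEX4 (r = 0.98), INAFM1 (0.97) and DNAJC10, a disulfide reductase of the endoplasmic reticulum (0.97), with 0.97, 0.96 and 0.96 without that array. BEX4 at 12 h averaged 9.33 with Ra against 8.54 in control cells, and at 48 h 9.05 with Ra against 10.05 in control cells, the same order as YPEL5. For YPEL3, at background, the highest values of 0.91 (RBM43), 0.90 (ZNF736) and 0.89 (RPL11) came to 0.73, 0.72 and 0.70 without that array. These 3 then ranked 7th, 11th and 13th. The genes named for YPEL1 ranked 1st, 5th and 4th without that array, and those for YPEL5 1st, 4th and 3rd.

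With each group's mean removed, which leaves the variation between replicates, YPEL1 was most like C8orf58, SHQ1 and LZTS2 (r = 0.99 each), YPEL2 like ANKS1A, TULP4 and ITPK1 (0.99 each) and YPEL5 like CCNL2, NAGS and PIGV (0.97, 0.97 and 0.96). Without Ra 48 h replicate 2 these lay between 0.82 and 0.86 for YPEL1, between 0.91 and 0.95 for YPEL2 and between 0.94 and 0.96 for YPEL5. For YPEL3 they were NOL9, IFTAP and HK2 (0.95, 0.92 and 0.92). Among the members themselves the correlation over 12 arrays was 0.56 between YPEL1 and YPEL2, 0.58 between YPEL2 and YPEL5 and 0.02 between YPEL1 and YPEL5. Over the 11 other arrays it was 0.61, 0.51 and -0.04, so YPEL1 and YPEL5 did not follow 1 pattern over these arrays.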

How the data were processed

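Total RNA of 12 HK-2 samples was hybridised to Affymetrix 3′ expression arrays, and groups, times and replicate numbers came from the labels. The deposited values are log2 expression values that the authors obtained with GCRMA, per the submitters' processing notes. Neither its version nor which arrays were normalized together is stated in the labels. Probe sets were named through the platform annotation (41097 with 1 symbol, 1801 with several, 11777 unnamed), and 0 symbols changed through RefSeq.

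Probe sets with 1 symbol that reached 5 log2 units on at least 3 arrays were kept, the one with the highest mean per gene, giving 10050 genes. Limma 3.58.1 in R 4.3.3 was fitted with an intensity trend on the 6 arrays of each comparison, since the spread differed between the times, and on all 12 arrays for the difference of the effects. Benjamini-Hochberg adjustment at 0.05 covered all 10050 genes. Members' differences with Ra carry an SE from the spread within their own groups. The number of arrays limits the precision, and 0 pairs of arrays were identical.

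The members and gene lists were chosen with earlier results of these data known. Named are all members, the 3 genes most like each, all CTLH subunits, and up to 3 genes of the other lists with the lowest p in each comparison with Ra. The code was tested on simulated data. Same-numbered Ra and control arrays of 12 h deviated from their group means together (r = 0.18, 0.42 and 0.34), which is taken as pairing, while those of 48 h (0.30, -0.22 and 0.10) and the control arrays of both times (0.02, -0.02 and 0.07) did not. The labels call the samples biological replicates. In the main fits and in the members' SE the pairing of 12 h was left out, and the replicate block was run as an alternative. Alternatives changed the filter, scaling, probe sets, moderation, block and arrays. Plots were drawn with matplotlib.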

Additional observations from a re-analysis of the deposited data

Results flagged for a closer look

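YPEL5 was marked because every Ra array lay above every control array at 12 h and below every control array at 48 h. This is not particular to YPEL5, since RANBP9 and BTG1 had the same pattern. The share of all genes with it was not counted. The effect of Ra at 48 h minus that at 12 h was -1.05 ± 0.26 log2 units (SE from the spread within the groups), and -0.91 ± 0.21 without Ra 48 h replicate 2. The contrast holds the effects of Ra with which the members were chosen, so the value is a description and no test of the difference is given.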

How the results depend on the processing

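The number of genes called at 12 h, 1366 in limma's test, was 506 without the filter, 2351 with the replicate block, 3 with the spread from all 12 arrays and 293 (without Ra 12 h replicate 2) to 1388 (without Ra 12 h replicate 3) when 1 array was left out, with 332 when Ra 12 h replicate 1 was dropped and 412, 527 and 584 when control 12 h replicates 1, 2 and 3 were. At 48 h the count of 0 was 307 with a filter at 7 log2 units, 639 after quantile normalization, 714 with arrays centred on their median, 131 with the replicate block, 1262 with the spread from all 12 arrays, 1943 with that spread and Ra 48 h replicate 2 left out (chosen after seeing the data), and 0 to 71 (without Ra 48 h replicate 1) when 1 array was left out, with 4 without control 48 h replicate 3. Between the control groups 3334 calls became 2091 without the filter, 1955 with the spread from all 12 arrays and 1429 (without control 12 h replicate 3) to 4583 (without control 48 h replicate 3) when 1 array was left out, with 1554 without control 12 h replicate 1 or 2 and 1782 without control 48 h replicate 2. For the difference of the effects 2 calls became 5 without the filter, 43 with the filter at 7, 945 after quantile normalization, 856 after centring, 36 with the replicate block and 1 (without any 12 h array or Ra 48 h replicate 3) to 1041 (without Ra 48 h replicate 1) when 1 array was left out, with 572 when control 48 h replicate 3 was dropped and 320 when Ra 48 h replicate 2 was.

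The difference of the YPEL5 effects was -0.79 after centring. Those of YPEL1 and YPEL2 ran from -0.83 to -0.020 and from -1.70 to -0.49 when 1 array was left out, and the YPEL2 difference at 48 h from -0.83 to 0.38. The YPEL1 difference between control groups, at background in both, ran from -0.015 (without control 12 h replicate 2) to 0.17. The YPEL2 rise in control cells lost its call with the spread from all 12 arrays (difference 0.85). Other probe sets, at background, gave 0.80 and 0.067 for YPEL1 at 12 h and 0.18 and 0.078 at 48 h, 0.19 and 0.069 for YPEL2 at 12 h and -0.055 and 0.012 between control groups, and -0.0041 at 12 h and 0.022 at 48 h for YPEL3. The replicate block changed no call of YPEL2 or YPEL5 between the control groups. YPEL1 did not reach the filter at 7 log2 units, so it has no value there.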
